A study of Homo sapiens with 8 samples.

Results

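SELE, SELP, ICAM1, VCAM1, NOD2 and TLR2 are 6 genes through which cells capture passing leukocytes or detect microbial products. They were taken by gene symbol: every probe set whose platform annotation gave one of these symbols was used, which found 8 of 54675 probe sets, and the 6 genes are 6 of the 19775 genes that the arrays could be read for. The genes were picked with their differences on the ethanol array already known, so those differences are given as a description, without a test. Transcripts were measured in SKBR3, a human breast cancer cell line with amplified HER2, on 8 Affymetrix arrays, 1 array per condition. Cells received 0.1% ethanol, in which estradiol is dissolved; free estradiol at 1e-06 M, with no ethanol content given in its label; E2-BSA, the hormone linked to albumin, at 1e-06 M, together with ICI at 1e-05 M, together with G15 at 1e-05 M, or alone; G15 alone at 1e-05 M; BSA, the carrier of E2-BSA, at 1e-06 M; or nothing. All cells had first spent 4 h in medium with 10% charcoal-stripped serum and were then collected 3 h after treatment or, for the untreated cells, after a change of medium. G15 is an antagonist of the membrane estrogen receptor GPER, and ICI is known here only by that abbreviation.

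No condition was repeated, and each probe set was centred near its own median over the arrays before deposit. A value therefore says how far an array lies from the middle of the arrays for that probe set, on a scale read as log2, and says nothing about how much transcript was present. Whether SKBR3 cells express any of the 6 genes without treatment, or carry the defining markers of their labelled type, cannot be read from these values. Differences subtract the second array named from the first, and the threshold of 2-fold corresponds to a difference of 1 in either direction. BSA minus untreated, a comparison without hormone, G15 or ICI, had an SD over genes of 0.166. On ethanol minus untreated, also without them, the SD was 0.304. With 1 array per condition, neither SD separates an effect of the treatment from drift between arrays. A larger value may come from more transcript in each cell or from more cells that make it, which bulk RNA cannot tell apart.

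Selectins are lectins that catch leukocytes from flowing blood: E-selectin (SELE) is made on activated endothelium, and P-selectin (SELP) is stored in platelets and endothelial granules. ICAM1 and VCAM1 are immunoglobulin-like proteins that leukocyte integrins then grip, ICAM1 through LFA-1 and Mac-1 and VCAM1 through VLA-4. TLR2 senses bacterial lipoproteins at the cell surface, NOD2 senses muramyl dipeptide from bacterial cell walls in the cytosol, and both pass their signal to NF-kB, the transcription factor that textbooks name as a driver of SELE, ICAM1 and VCAM1 in endothelium.

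The promoter windows of those 3 adhesion genes, 250 bases before to 50 bases after the annotated start, are shown because SELE and ICAM1 were high on the ethanol array and VCAM1 was not. They come from RefSeq, build GRCh38.p14, which also held a window for each of the other 3 genes and 2 for NOD2. SELE lies on the minus strand at chr1:169734030-169734329, ICAM1 on the plus strand at chr19:10270870-10271169 and VCAM1 on the plus strand at chr1:100719492-100719791, and each window covers the upstream flank and the first transcribed bases. Capitals mark matches, on either strand, to the kappa-B consensus, the 10-base sequence class that NF-kB binds, or to the looser 9-base form GGNNNTTCC, which overlaps it.
SELE: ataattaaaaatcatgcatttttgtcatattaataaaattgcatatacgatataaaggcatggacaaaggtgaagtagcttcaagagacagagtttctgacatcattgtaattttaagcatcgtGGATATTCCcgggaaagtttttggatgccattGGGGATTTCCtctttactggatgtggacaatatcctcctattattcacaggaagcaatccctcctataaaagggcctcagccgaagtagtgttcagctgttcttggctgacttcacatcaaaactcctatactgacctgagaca
ICAM1: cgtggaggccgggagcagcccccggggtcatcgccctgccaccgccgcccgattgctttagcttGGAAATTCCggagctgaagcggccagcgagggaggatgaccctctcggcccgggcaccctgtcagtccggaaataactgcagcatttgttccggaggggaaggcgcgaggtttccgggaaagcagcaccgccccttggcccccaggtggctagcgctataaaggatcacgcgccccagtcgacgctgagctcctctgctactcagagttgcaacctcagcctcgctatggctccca
VCAM1: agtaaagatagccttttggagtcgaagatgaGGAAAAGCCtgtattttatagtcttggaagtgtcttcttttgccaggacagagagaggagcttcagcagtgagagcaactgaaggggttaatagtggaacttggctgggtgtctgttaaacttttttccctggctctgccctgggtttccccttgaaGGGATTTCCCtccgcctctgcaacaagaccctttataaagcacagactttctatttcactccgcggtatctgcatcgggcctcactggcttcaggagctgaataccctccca

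The kappa-B consensus had a match in SELE at position -94 and in VCAM1 at position -62, counted from the annotated start, and none in the windows of the other 4 genes. Of 35116 promoter windows of the same length, 11.3% held it. The looser form matched in SELE at -126 and -93, in ICAM1 at -186, in VCAM1 at -219 and -62, and in TLR2 at -77 and -35, and 20.1% of all windows held it. Neither form was found in the windows of SELP or NOD2. The AP-1 sequence TGANTCA, which 7.71% of all windows held, was found in none of the 6 genes. TATAAA, the TATA box, stood nearest the start at -30 in SELE, at -30 in ICAM1 and at -29 in VCAM1, and was present in 11.5% of all windows. SELE and VCAM1 carried the same classes of match. Whether any match bears on the values on the arrays was not tested.

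**Figure D1:**
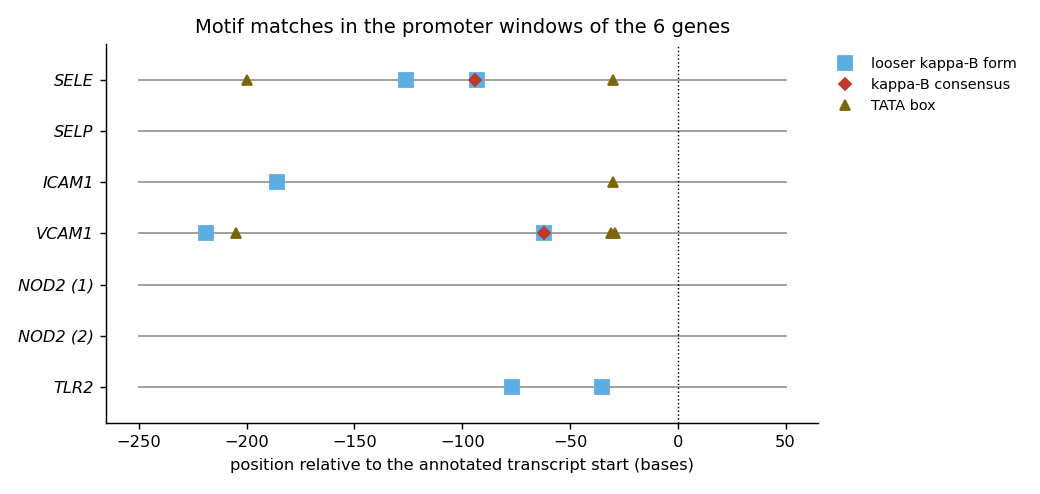
Positions of motif matches, on either strand, in the promoter windows of the 6 genes, with the annotated transcript start at 0 on the horizontal axis in bases and both annotated starts of NOD2 drawn. Red diamonds mark the kappa-B consensus, in SELE and VCAM1, blue squares its looser form, and triangles the TATA box.

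The selectins differed from each other. SELE, with 1 probe set (206211_at), stood at 5.87 with ethanol, 0.00 with estradiol, -0.49 with E2-BSA plus ICI, -0.29 with E2-BSA plus G15, -0.01 with E2-BSA, 0.00 with G15, 0.18 with BSA and 0.00 untreated. The ethanol array was far above all others, and the next highest, BSA, lay 5.70 below it. Ethanol minus untreated was 5.87, a fold of 58.6, which placed SELE at rank 4 from the highest among 19775 genes.

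SELP, also with 1 probe set (206049_at), had no such value. It stood at -0.28 with ethanol, 0.04 with estradiol, 0.36 with E2-BSA plus ICI, 0.00 with E2-BSA plus G15, -0.45 with E2-BSA, 0.14 with G15, -0.08 with BSA and 0.22 untreated. E2-BSA gave its lowest value, ethanol the next lowest, and E2-BSA plus ICI the highest. Ethanol minus untreated was -0.51, at rank 271 from the lowest. SELP and SELE lie close together on chromosome 1. The coding genes measured on either side of the pair, F5 (coagulation factor V) and FIRRM, differed by -0.25 and -0.19 between ethanol and untreated cells.

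Of the integrin ligands, ICAM1 was high with ethanol by 2 of its 3 probe sets. Probe set 202638_s_at stood at 3.57 with ethanol, -0.21 with estradiol, 0.17 with E2-BSA plus ICI, -0.10 with E2-BSA plus G15, 0.00 with E2-BSA, 0.00 with G15, -0.32 with BSA and 0.00 untreated. Probe set 202637_s_at stood at 2.03 with ethanol, 0.00 with estradiol, 0.00 with E2-BSA plus ICI, -0.19 with E2-BSA plus G15, 0.11 with E2-BSA, -0.03 with G15, 0.00 with BSA and -0.10 untreated. In both, ethanol alone stood apart. Probe set 215485_s_at did not follow them, at 0.11 with ethanol, 0.17 with estradiol, 0.00 with E2-BSA plus ICI, -0.22 with E2-BSA plus G15, 0.00 with E2-BSA, 0.20 with G15, -0.40 with BSA and 0.00 untreated, so that estradiol and G15 exceeded ethanol there. The gene mean on ethanol minus untreated was 1.94, a fold of 3.83 at rank 43 from the highest, while the single probe sets gave 3.57, 2.13 and 0.11. ICAM1 thus differs by 11.9-fold or by 1.08-fold according to the probe set read. All 3 are of the type that can match several transcripts.

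VCAM1 showed no such value on the ethanol array. Its probe set (203868_s_at) stood at -0.05 with ethanol, 0.01 with estradiol, -0.10 with E2-BSA plus ICI, -0.11 with E2-BSA plus G15, 0.00 with E2-BSA, 0.06 with G15, 0.36 with BSA and -0.10 untreated. BSA was the highest array and the other 7 lay within 0.171 of each other. Ethanol minus untreated was 0.06, at rank 6290 from the highest. On BSA minus untreated VCAM1 differed by 0.46, at rank 170 from the highest.

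The microbial sensors also parted. NOD2 (220066_at) stood at 2.62 with ethanol, -0.29 with estradiol, 0.19 with E2-BSA plus ICI, -0.19 with E2-BSA plus G15, 0.25 with E2-BSA, 0.02 with G15, -0.02 with BSA and 0.00 untreated. Ethanol was highest by 2.37, E2-BSA followed and estradiol was lowest. Ethanol minus untreated was 2.62, a fold of 6.14 at rank 20 from the highest. CYLD, the next coding gene along chromosome 16 and an inhibitor of NF-kB signalling, differed by 0.87; it is named here after its value was seen.

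TLR2 (204924_at) stood at 0.00 with ethanol, -0.04 with estradiol, 0.08 with E2-BSA plus ICI, -0.16 with E2-BSA plus G15, 0.00 with E2-BSA, 0.36 with G15, 0.20 with BSA and 0.00 untreated. G15 was highest, E2-BSA plus G15 lowest, and ethanol sat in the middle with the same deposited value as the untreated array. An exact 0 was held by 3 of the 8 arrays for TLR2 and for SELE and by 1 for SELP, VCAM1 and NOD2. The sources used here do not say how these ties arose.

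**Figure D2:**
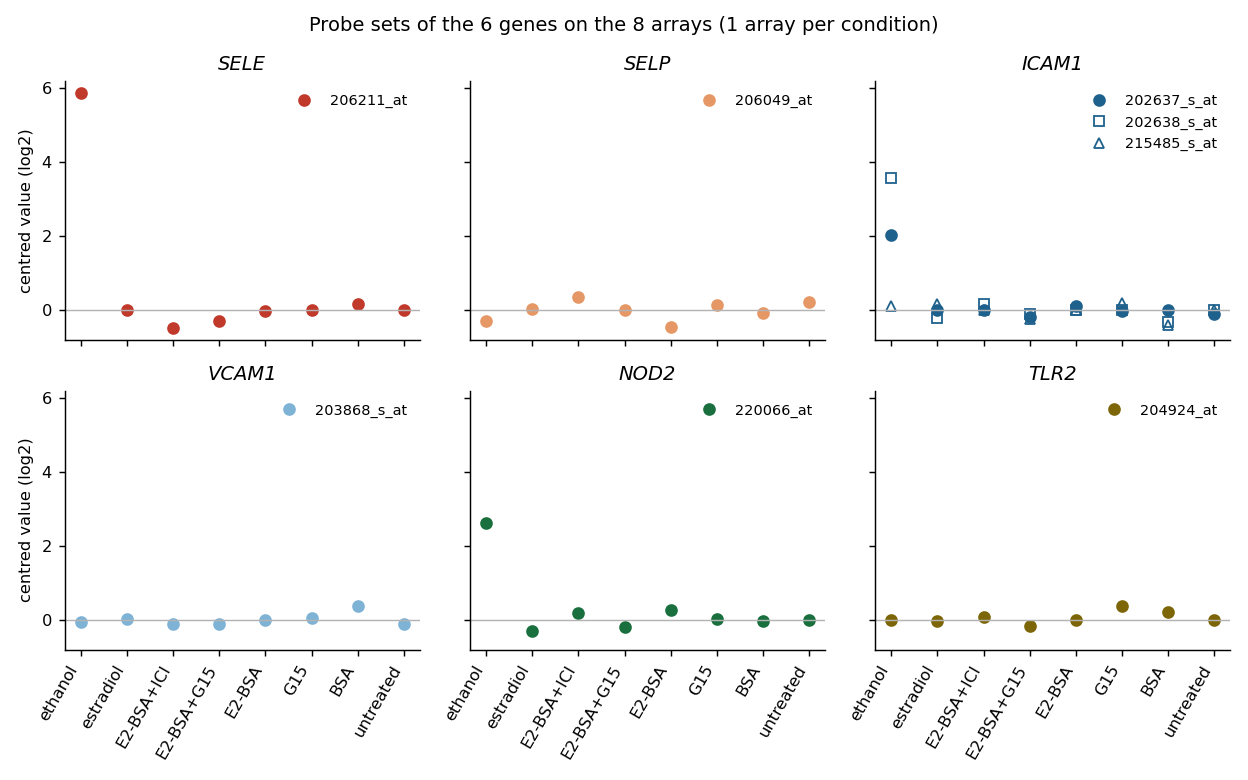
Centred log2 value of each of the 8 probe sets of the 6 genes (vertical axis) on each of the 8 arrays (horizontal axis), 1 point per array and no error bars because each condition has 1 array. On the ethanol array SELE reaches 5.87, NOD2 2.62 and 2 ICAM1 probe sets 3.57 and 2.03, while SELP, VCAM1, TLR2 and the third ICAM1 probe set lie between -0.28 and 0.11.

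In total 3 of the 6 genes, SELE, ICAM1 and NOD2, were at least 2-fold higher with ethanol than in untreated cells, where 0.87% of all genes were, and 0 were 2-fold lower, beside 0.0152%. Since the genes were chosen with this comparison known, the count describes them and no more. The median over the 6 genes was 0.996 and over all genes -0.03. The other 3 genes span -0.51 to 0.06, so that in each pair of related molecules, the selectins, the integrin ligands and the sensors, 1 gene was 2-fold higher and the other was not. Against the highest of the other 7 arrays, rather than the untreated one, SELE was still higher by 5.70, NOD2 by 2.37 and ICAM1 by 1.85, and 0.637% of all genes were 2-fold higher by that measure. Quantile normalization, which gives all arrays 1 distribution, brought ethanol minus untreated to 1.91 for SELE, 1.02 for NOD2 and 0.78 for ICAM1, under 2-fold for ICAM1.

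**Figure D3:**
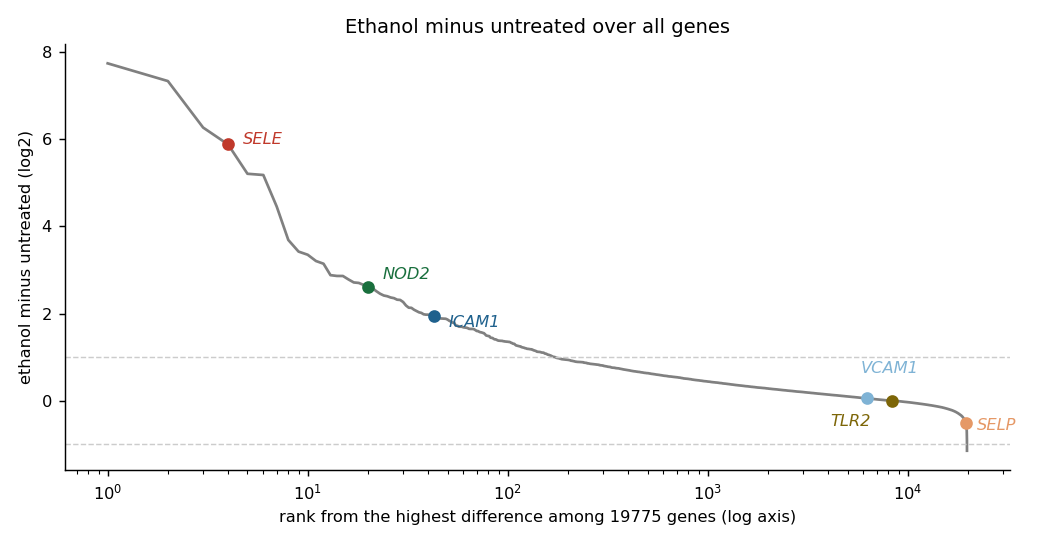
Ethanol minus untreated (vertical axis, log2) for 19775 genes ordered from the highest difference (horizontal axis, rank on a log scale), with the 6 genes marked and dashed lines at 2-fold. SELE, NOD2 and ICAM1 hold ranks 4, 20 and 43, and VCAM1, TLR2 and SELP lie on the flat or falling part of the curve.

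Free estradiol was set against ethanol, its vehicle. Estradiol minus ethanol was -5.87 for SELE, -2.91 for NOD2 and -1.91 for ICAM1, so 3 of the 6 genes were at least 2-fold lower where 0.865% of all genes were. SELP differed by 0.32, VCAM1 by 0.06 and TLR2 by -0.04. This comparison and ethanol minus untreated share the ethanol array, on which the 3 genes are high. Against untreated cells, estradiol gave 0.00 for SELE, 0.02 for ICAM1 and -0.29 for NOD2. None of the 6 genes was then 2-fold apart in either direction, and over all genes 0.0% were higher and 0.0152% lower. NOD2 was the largest of these differences for estradiol, at rank 387 from the lowest, and against the BSA array it differed by -0.27.

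On the arrays other than ethanol no gene mean of the 6 lay above 0.36 or below -0.49. Over those 7 arrays the range of the gene means was 0.812 for SELP, 0.666 for SELE, 0.545 for NOD2, 0.523 for TLR2, 0.478 for VCAM1 and 0.297 for ICAM1. The median range of genes with 1 probe set was 0.343, and 98.2% of those 9252 genes had a smaller range than SELP, 94.4% than SELE, 85.4% than NOD2, 83.3% than TLR2 and 76.6% than VCAM1. ICAM1 is the mean of 3 probe sets, which narrows its range. The order of the arrays differed from gene to gene: the highest of the 7 was BSA for SELE and VCAM1, E2-BSA plus ICI for SELP, G15 for ICAM1 and TLR2, and E2-BSA for NOD2. With ethanol in, SELE correlated with ICAM1 at r = 0.978 and with NOD2 at r = 0.974 over 8 arrays. Over the 7 arrays without it the same pairs gave -0.303 and -0.182. These correlations share arrays and are descriptions: the likeness of the 3 genes rests on the ethanol array.

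**Figure D4:**
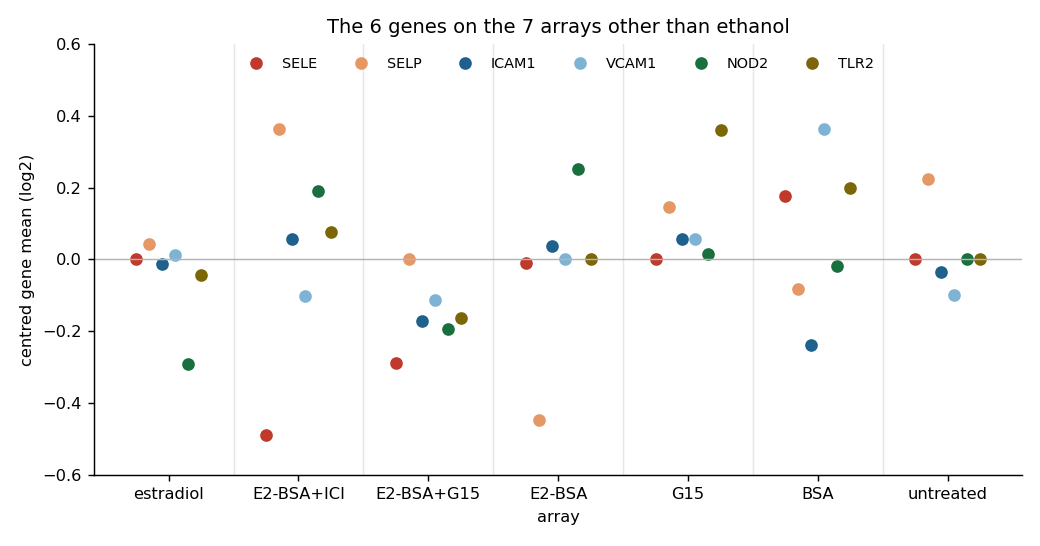
Centred gene mean (vertical axis, log2) of the 6 genes on the 7 arrays other than ethanol (horizontal axis), 1 point per gene and array. All points lie between -0.49 and 0.36.

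Coupled estradiol was set against its carrier. E2-BSA minus BSA was 0.28 for ICAM1 and 0.27 for NOD2, and -0.19 for SELE, -0.37 for SELP, -0.36 for VCAM1 and -0.20 for TLR2. None of the 6 was 2-fold apart, where 0.0101% of all genes were higher and 0.0101% lower. Of these differences only that of NOD2 changed little when the untreated array replaced BSA, and that of SELP grew larger in size. Against untreated cells E2-BSA gave 0.25 for NOD2, 0.07 for ICAM1, -0.01 for SELE, 0.10 for VCAM1 and 0.00 for TLR2. SELP differed from untreated by -0.67 with E2-BSA, at rank 17 from the lowest, and was the only one of the 6 at least 1.5-fold lower there, beside 0.238% of all genes. BSA minus untreated, without hormone, gave -0.31 for SELP, and none of the 6 was 2-fold apart, where 0.0303% of all genes were higher and 0.0% lower.

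Free estradiol minus E2-BSA, both at a stated 1e-06 M, was -0.54 for NOD2 and 0.49 for SELP. NOD2 stood at rank 31 from the lowest and SELP at rank 161 from the highest. The hormone forms differ by the albumin, and the arrays may differ by ethanol too, which the estradiol label does not give. The other 4 genes differed by between -0.05 and 0.01. None reached 2-fold, where 0.0% of all genes were higher and 0.0152% lower, and with 1 array each no interval can be given. The labels do not say whether the E2-BSA dose counts the conjugate or the hormone on it.

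G15 and ICI were each set against the same condition without them. G15 minus untreated was 0.36 for TLR2, at rank 543 from the highest, and between -0.08 and 0.16 for the other 5 genes. None of the 6 was 2-fold apart, where 0.00506% of all genes were higher and 0.0% lower. Against BSA, TLR2 differed with G15 by 0.16.

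With ICI added to E2-BSA, SELP was higher by 0.81, a fold of 1.76 at rank 40 from the highest. SELP was the only one of the 6 at least 1.5-fold higher, beside 1.03% of all genes, and at 2-fold none was called, where 0.0303% of all genes were higher and 0.0405% lower. The E2-BSA array held the lowest SELP value of the 8, and against untreated cells E2-BSA plus ICI gave 0.14. SELE differed by -0.48 from E2-BSA, at rank 263 from the lowest, and by -0.49 from untreated. ICAM1 differed by 0.02, TLR2 by 0.08, NOD2 by -0.06 and VCAM1 by -0.10.

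With G15 added to E2-BSA, NOD2 differed by -0.45, SELE by -0.28, ICAM1 by -0.21, TLR2 by -0.16 and VCAM1 by -0.11, and SELP by 0.45. That is 5 of 6 genes below 0, where 51.7% of all genes were. None was 2-fold apart, beside 0.0152% of all genes higher and 0.0303% lower. Against G15 alone all 6 were below 0, beside 54.9% of all genes, from -0.14 for SELP to -0.52 for TLR2. Against untreated cells all 6 were below 0 too, beside 51.8%, and these comparisons share the E2-BSA plus G15 array. TLR2, at -0.52, stood at rank 127 from the lowest against G15 alone, and none of the 6 reached 2-fold there, where 0.00506% of all genes were higher and 0.0101% lower.

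Other genes of the same pathways were described from lists of related molecules. Of 23 other adhesion molecules, 0 were 2-fold higher or lower on ethanol minus untreated, with a median of -0.06. Over all genes 0.87% were higher and 0.0152% lower. The highest were ALCAM, which binds CD6 on lymphocytes, at 0.68, the junctional JAM2 at 0.41 and CD47, a ligand of the macrophage receptor SIRPA, at 0.41. The lowest was ICAM2 at -0.35. ICAM4 and ICAM5, the coding genes next to ICAM1 on chromosome 19, differed by 0.18 and -0.10, and ICAM3, of the same cluster, by -0.03.

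Of 30 other microbial sensors, only IFIH1, the cytosolic sensor of double-stranded RNA also known as MDA5, was 2-fold higher, at 1.21, beside 0.87% of all genes, and 0 were lower, beside 0.0152%. Its 3 probe sets gave 1.83, 0.93 and 0.86. The related DHX58 and RIGI followed at 0.42 and 0.41, and NLRP1 was lowest at -0.29. The median of the 30 was 0.00, against -0.03 over all genes. No Toll-like or NOD-like receptor on the list was 2-fold apart.

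The adaptors and regulators below TLR2 and NOD2 held larger differences. Of 21 measured, 3 were 2-fold higher on ethanol minus untreated, beside 0.87% of all genes, and 0 were lower, beside 0.0152%, with a median of 0.12. TNFAIP3, the ubiquitin-editing enzyme that shuts off NF-kB, was higher by 5.17. RIPK2, the kinase that NOD2 recruits, was higher by 1.93, with its 2 probe sets at 1.97 and 1.89. TICAM1, the adaptor of TLR3 and TLR4 also called TRIF, was higher by 1.58. IRAK2, a kinase of the MYD88 pathway, did not pass 2-fold at 0.85, and its 3 probe sets gave 2.39, 0.16 and 0.01. On estradiol minus ethanol, which shares the ethanol array, IRAK2 was 2-fold lower, at -1.06. MYD88 itself, the adaptor that TLR2 uses, differed by -0.05, and TIRAP was lowest at -0.27.

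Of the markers of cell types in which these genes are best known, none was 2-fold apart. The share of all genes on ethanol minus untreated was 0.87% higher and 0.0152% lower. On ethanol minus untreated, 8 endothelial markers differed by between -0.27 and 0.32 with a median of -0.02, and 6 leukocyte markers by between -0.23 and 0.35 with a median of -0.05. PECAM1 stood at -0.27, VWF at 0.06 and PTPRC at -0.12. The 8 breast epithelial markers differed by between -0.27 and 0.19. As the values are centred, they do not show whether endothelial or leukocyte markers are expressed.

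**Figure D5:**
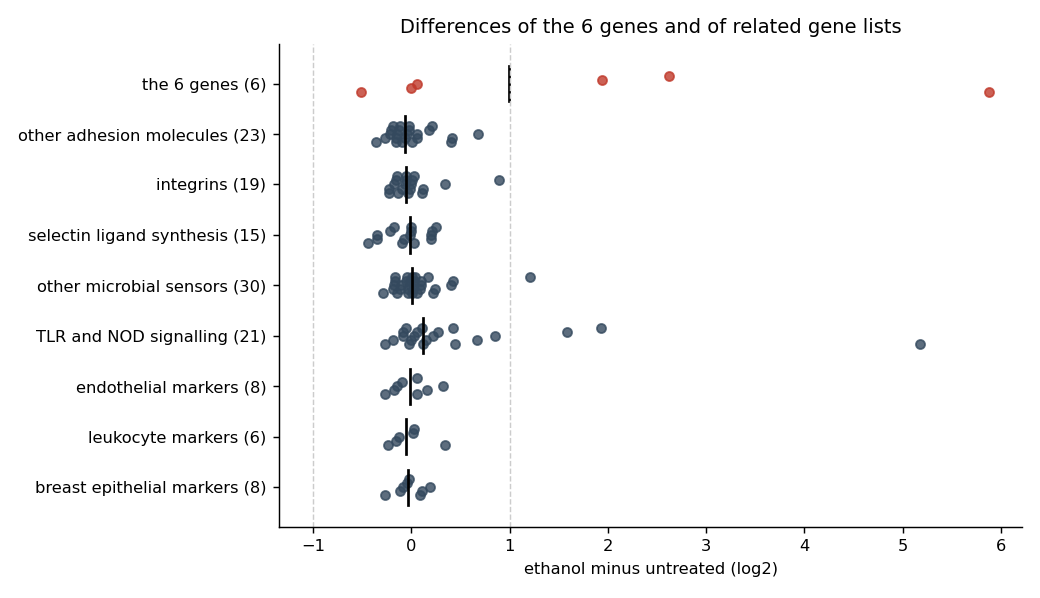
Ethanol minus untreated (horizontal axis, log2) for the 6 genes and for the measured members of 8 related lists (vertical axis, number of genes in brackets), 1 point per gene, with a black bar at each median and dashed lines at 2-fold. Past 2-fold lie 3 of the 6 genes, 1 other microbial sensor and 3 genes of TLR and NOD signalling.

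The genes nearest to SELE, ICAM1 and NOD2 in pattern were found by Euclidean distance of the gene means over the 8 arrays. Nearest to SELE were the neutrophil chemokine CXCL1 at a distance of 0.737, the cytokine TNF at 0.907, TNFAIP3 at 1.13, CXCL8 at 1.55 and CXCL3 at 1.70. Nearest to ICAM1 were RIPK2 at 0.283, the stress factor ATF3 at 0.285, NEURL3 at 0.287, RGS2, a regulator of G protein signalling, at 0.307 and the interferon-inducible GTPase GBP2 at 0.341. Nearest to NOD2 were GADD45A at 0.504, CHAC1 at 0.547, PLAU, the urokinase protease, at 0.583, the chemokine CX3CL1 at 0.589 and SERPINA3 at 0.591. Over 8 arrays each of these 15 genes correlated with its partner at r = 0.974 or more. Over the 7 arrays without ethanol r lay between -0.394 and 0.615, so these neighbours are genes of like size on the ethanol array.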

How the data were processed

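Transcript levels were measured on 8 arrays, 1 per condition, each placed in its group by its title. The deposited values were read as log2 and used as deposited; the sources used here do not give the log base or how the authors summarized and normalized the probes. From the values, no probe set has more than 4 of 8 arrays above or below 0, and 48.3% of probe sets hold an exact 0 on 2 or more arrays, so level was removed by centring. Control probe sets (62) were left out. Of the rest, 41091 carried 1 gene in the platform annotation and 1801 several, which were not used; 41037 were matched to a current symbol. A gene is the mean of its probe sets.

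Differences between 2 arrays were computed with pandas 2.3.3 in Python 3.11.15, checked on simulated data. With 1 array per condition there is no replicate error, interval or test, the number of arrays limits the precision, and no batch is labelled. Counts are at 2-fold. All members, list members at 2-fold in any comparison and, on ethanol minus untreated, the 3 highest and the lowest of a list were named, with the 5 nearest genes of each member that was 2-fold higher. The members and lists were chosen with earlier results of these data known. Alternatives covered centring, quantile normalization, probe sets, threshold and comparator.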

Additional observations from a re-analysis of the deposited data

How the results depend on the processing

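For the 10 comparisons, the count of the 6 genes at 2-fold stayed at its value, or within 1.5 times of it, under median centring, quantile normalization, the probe set with the largest SD and leaving out probe sets that match more than 1 transcript. Part of this was fixed in advance. Every array has a median of 0, so median centring could change no value. A gene with 1 probe set keeps its value under both probe set settings or is left out, so only ICAM1 could change there. Other comparators were run for 6 of the 10. The exceptions were estradiol with the BSA array in place of ethanol, where 0 genes were 2-fold apart and ICAM1 turned to 0.23, and ICI added to E2-BSA, where 1 gene passed 1.5-fold. Ethanol minus untreated and estradiol minus ethanol kept 2 of their 3 calls under quantile normalization and without the multi-transcript probe sets. Of the other differences of single genes under the alternatives, 219 moved by less than 0.166 and 45 by more. Most of the 219 had no room to move. Median centring gave 60 of them and leaving out multi-transcript probe sets 40. The probe set with the largest SD gave 57, of which only those of ICAM1 were free to change. With the BSA array as comparator, 27 differences moved, 1 reversed and 2 stayed. With the untreated array 5 moved and 1 stayed, and with the median of the other 7 arrays 1 moved and 5 stayed. Quantile normalization forces 1 distribution on all arrays and so shrinks the ethanol tail: ethanol minus untreated became 1.91 for SELE, 1.02 for NOD2 and 0.78 for ICAM1, which ended the call of ICAM1. ICAM1 and VCAM1 have no probe set outside the multi-transcript type. No paired analysis was possible because each condition has 1 array and the labels give no replicate numbers. Reading each ICAM1 probe set alone was chosen after seeing the data. If the values were natural logs, all folds would be larger.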

Other observations

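Integrin subunits and the enzymes that build selectin ligands had no member at 2-fold on ethanol minus untreated. Over all genes 0.87% were higher and 0.0152% lower, so a count of 0 in such short lists says little. Of 19 integrin subunits, 0 were 2-fold apart on ethanol minus untreated, with a median of -0.06. ITGB8, a subunit of the TGF-beta-activating integrin, was highest at 0.89, and its 5 probe sets gave 2.24, 1.13, 0.67, 0.30 and 0.10. The leukocyte subunit ITGAM followed at 0.35 and ITGAE, which pairs with ITGB7 on intraepithelial lymphocytes, at 0.12, while ITGAD was lowest at -0.22. Of 15 enzymes that build selectin ligands, 0 were 2-fold apart, with a median of -0.01. B4GALT1, which adds galactose, was highest at 0.25, followed by the tyrosine sulfotransferase TPST1 at 0.21 and, at 0.20, TPST2 and the sialyltransferase ST3GAL4. GCNT1, which starts the branched O-glycan that carries the P-selectin ligand, was lowest at -0.44.

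The 21 adaptors and regulators of TLR and NOD signalling stood mostly above 0 on E2-BSA minus BSA, 15 of 21 with a median of 0.15, beside 49.3% of all genes. With ICI added to E2-BSA, 16 of 21 were below 0, beside 46.8% of all genes, and with G15 added 17 of 21, beside 51.7%. Free estradiol minus E2-BSA, without ICI or G15, also had 17 of 21 below 0, beside 52.6%. All these comparisons share the E2-BSA array, and none of the 21 was 2-fold apart in any of them. On free estradiol minus BSA, which does not use that array, 11 were above 0 and 9 below, beside 48.5% and 48.7% of all genes. Of the 8 breast epithelial markers, 7 were above 0 on E2-BSA minus BSA with a median of 0.08, beside 49.3% of all genes. With ICI added 0 were above 0, with a median of -0.10, beside 51.4% of all genes. With G15 added 4 were, with a median of -0.04, beside 46.2%. Of the 6 leukocyte markers, 2 were above 0 on E2-BSA minus BSA, 5 with ICI added and 3 with G15 added, beside the same shares of all genes. Whether these markers bear on the signs of the 21 genes was not tested.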
